A study of Mus musculus with 108 samples.

Results

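The Zfp genes are the mouse genes whose symbol is Zfp followed by a number, nearly all of which encode proteins built from rows of C2H2 zinc fingers. Of 20558 autosomal protein-coding genes in the mm10 RefSeq annotation, 388 carried such a symbol, and 386 of them had a curated transcript that gave a transcription start site (TSS) and a gene body. Zfp993 on chromosome 4 and Zfp640 on chromosome 13 had none and were left out of the state counts. A gene with another Zfp gene within 100 kb, edge to edge, was called clustered, and the rest were called single. By this rule 221 of the 386 genes were clustered, in 50 clusters of 2 to 23 genes, and 165 were single.

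The data were liver chromatin from C57BL/6 female mice, profiled for 4 histone H3 marks by ChIP-seq of formalin-fixed, paraffin-embedded tissue. The group SD 3m was fed a standard diet and taken at 3 months, SD 12m was fed the same diet to 12 months, and CR 12m was switched to a calorie-restricted diet at 3 months and taken at 12 months. For each group the authors merged 30, 29 and 29 libraries in turn and assigned every 200 bp bin of the genome to 1 of 8 chromatin states. All mice are of 1 strain and sex, and a fixed whole-liver section holds every liver cell type, so that a state seen in fewer cells and a weaker mark in each cell cannot be told apart.

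There was therefore 1 segmentation per group and no replicate, so no test could be made, and a difference between groups here is a difference between 3 segmentations. The 95% intervals below (Wilson for shares, Newcombe for differences) run over genes and cover counting error only, and neighbouring genes are not independent. Read depth is not known from the state labels. The merged libraries also differed in number by mark: CR 12m held 5 H3K4me3 libraries against 7 in SD 3m and 8 in SD 12m, and the part of this in the results was not tested.

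Many clustered zinc finger proteins also carry a KRAB domain, through which they bring the co-repressor TRIM28 and the histone methyltransferase SETDB1 to the DNA that their fingers bind, commonly a transposable element. The genes spread by tandem duplication, so that neighbours share sequence. In many tissues their promoters are active while their downstream exons, which encode the fingers, are packed in chromatin with H3K9me3, a mark that was not profiled here. In the state scheme of this study, state 1 is the active TSS (H3K4me3 with H3K27ac), state 2 its flanks, states 3 to 5 are enhancer states with H3K4me1, state 6 is Polycomb-repressed with H3K27me3, and state 8 carries none of the marks. State 7 has weak H3K4me3 and hardly any other mark. The authors relate it to repeats and to lamina-associated domains.

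Promoter sequence of the Zfp genes covered a wide range of CpG content, which is shown here for 4 genes because their TSS states are compared by CpG content further on. Each run gives the 200 bases before the TSS in GRCm38.p6 (mm10), 5′ to 3′ on the gene's strand, with every CpG in capitals. Zfp36, an mRNA-decay protein with CCCH fingers, is a CpG-rich single gene (chr7:28379229-28379428, minus strand). Zfp57, which protects imprinted loci in the embryo, is a CpG-poor single gene (chr17:37000963-37001162, plus strand). Zfp445, a partner of Zfp57 in that role, is a CpG-poor clustered gene (chr9:122866007-122866206, minus strand). Zfp568, a regulator of Igf2 in the embryo, is a CpG-rich clustered gene (chr7:29983755-29983954, plus strand).
Zfp36: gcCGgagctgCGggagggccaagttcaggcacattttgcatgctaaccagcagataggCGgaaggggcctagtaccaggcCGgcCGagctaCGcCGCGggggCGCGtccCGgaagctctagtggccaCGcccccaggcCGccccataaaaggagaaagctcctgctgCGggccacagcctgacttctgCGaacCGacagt
Zfp57: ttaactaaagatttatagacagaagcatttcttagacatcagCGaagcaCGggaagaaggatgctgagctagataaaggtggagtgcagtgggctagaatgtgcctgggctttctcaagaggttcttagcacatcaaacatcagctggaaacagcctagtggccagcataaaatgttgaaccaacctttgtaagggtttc
Zfp445: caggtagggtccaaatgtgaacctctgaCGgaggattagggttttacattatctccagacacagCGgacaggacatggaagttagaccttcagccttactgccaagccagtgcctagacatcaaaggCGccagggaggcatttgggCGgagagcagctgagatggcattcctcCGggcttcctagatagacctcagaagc
Zfp568: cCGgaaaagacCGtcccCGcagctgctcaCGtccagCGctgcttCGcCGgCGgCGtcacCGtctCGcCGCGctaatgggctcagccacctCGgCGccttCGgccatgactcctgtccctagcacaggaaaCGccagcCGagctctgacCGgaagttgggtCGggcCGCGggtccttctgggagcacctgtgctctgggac

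Coding sequence showed the repeated fingers directly. A short conserved linker joins one C2H2 finger to the next, and a motif for its codons, with any base at the wobble positions, was searched in the coding sequence of the curated transcript. Of the 386 Zfp genes, 220 (57.0%) held 3 or more such linkers on the sense strand, against 85 of 19635 other genes (0.433%). On the reverse strand none of the 386 held the motif, and 18 other genes did. Of 1385 pairs of neighbouring linkers in Zfp genes, 906 (65.4%) were exactly 84 bases apart, which is the length of 1 finger unit. Clustered genes held a median of 5 linkers and single genes a median of 0, and 73.8% of clustered against 34.5% of single genes held 3 or more. Stretches of 3 linkers and the fingers between them are shown for the longest genes of 3 of the largest clusters, with the linkers in capitals; all lie within coding exons of GRCm38.p6, at chr13:67316456-67316637 (minus strand) for Zfp595, chr17:21928682-21928863 (minus strand) for Zfp942 and chr7:24105598-24105779 (plus strand) for Zfp180.
Zfp595: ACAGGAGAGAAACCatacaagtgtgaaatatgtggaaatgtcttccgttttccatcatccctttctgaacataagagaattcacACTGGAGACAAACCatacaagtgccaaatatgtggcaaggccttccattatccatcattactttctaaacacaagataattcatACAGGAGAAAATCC
Zfp942: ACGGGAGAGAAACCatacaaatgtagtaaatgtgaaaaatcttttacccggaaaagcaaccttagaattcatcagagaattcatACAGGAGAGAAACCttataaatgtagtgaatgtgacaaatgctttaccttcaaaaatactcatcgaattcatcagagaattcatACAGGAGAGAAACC
Zfp180: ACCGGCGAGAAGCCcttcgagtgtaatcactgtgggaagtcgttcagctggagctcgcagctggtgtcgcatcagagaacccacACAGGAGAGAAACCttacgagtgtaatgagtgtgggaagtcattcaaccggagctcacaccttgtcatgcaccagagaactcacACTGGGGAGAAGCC

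At the TSS, Zfp genes were more often in the active state than other genes in all 3 segmentations. In SD 3m 244 of 386 TSS bins (63.2%, 58.3 to 67.9%) were in state 1, compared with 227 for SD 12m (58.8%) and 207 for CR 12m (53.6%). Among the 19635 other genes the shares were 35.1%, 34.7% and 30.1%. The 83 genes of the zinc finger families Zscan, Zkscan, Zbtb and Klf stood at 59.04%, 60.2% and 55.4%, within the intervals of the Zfp genes in each group, so that this level was not particular to the Zfp genes. Clustered genes stood at 66.5%, 58.8% and 53.8%, and single genes at 58.8%, 58.8% and 53.3%. The clustered minus single difference was 7.73 points (-1.96 to 17.4) in SD 3m, 0.0357 points (-9.74 to 9.92) in SD 12m and 0.513 points (-9.43 to 10.5) in CR 12m, and each of these intervals held 0. With the lowest state within 1 kb of the TSS in place of the TSS bin, the SD 3m difference was 10.2 points (1.42 to 19.1), whose interval did not hold 0.

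**Figure D1:**
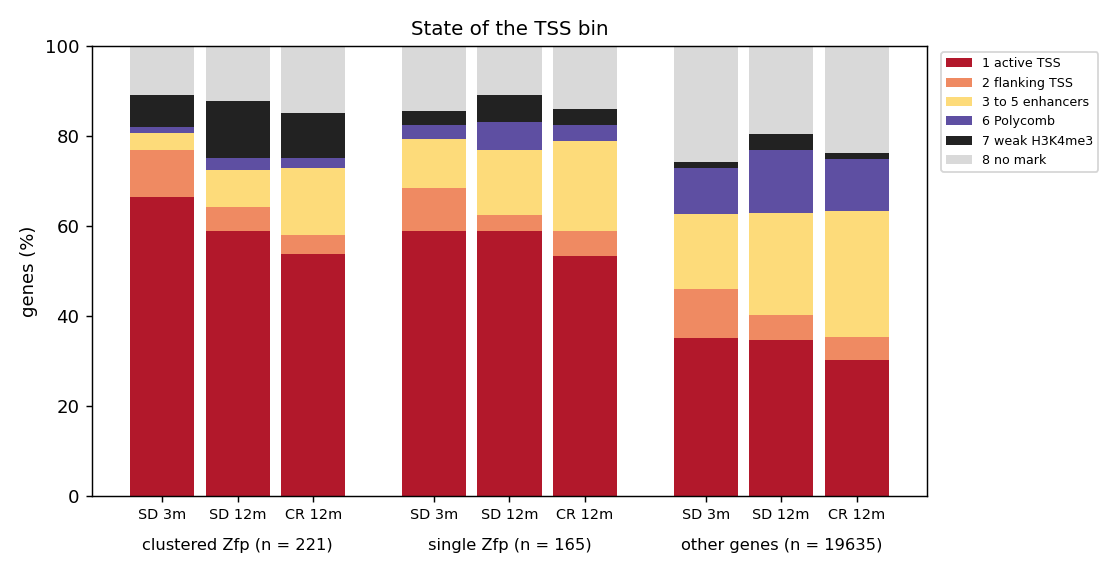
State of the 200 bp bin that holds the TSS, as stacked percentages of clustered Zfp genes (221), single Zfp genes (165) and other protein-coding genes (19635), one bar each for SD 3m, SD 12m and CR 12m. State 1 takes 66.5% of clustered and 58.8% of single Zfp genes in SD 3m against 35.1% of other genes.

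Zfp genes stood above other genes at both CpG-rich and CpG-poor promoters. CpG-rich promoters (GC of at least 50% and observed/expected CpG of at least 0.6) made up 44.6% of Zfp genes and 45.6% of other genes. With a CpG-rich promoter, 75.6% of Zfp genes were in state 1 in SD 3m against 61.5% of other genes. With a CpG-poor promoter, 53.3% of Zfp genes (46.6 to 59.8%) were in state 1 in SD 3m against 13.0% of other genes (12.4 to 13.7%), and the same shares were 46.3% against 13.5% in SD 12m and 43.9% against 10.9% in CR 12m. Within the CpG-poor Zfp genes, 61.0% of the clustered and 38.4% of the single genes were in state 1 in SD 3m, whereas the shares were 49.6% and 39.7% for SD 12m and 46.1% and 39.7% for CR 12m. The Zfp445 promoter printed above, with 5 CpG in 200 bases, was in state 1 in all 3 groups, and that of Zfp57, with 2 CpG, was in state 6 in SD 3m and in state 8 in both 12-month groups.

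The Polycomb state was rare at these promoters. State 6 held 8 Zfp TSS bins in SD 3m (2.07%), with 16 in SD 12m (4.15%) and 11 for CR 12m (2.85%), against 10.1%, 13.995% and 11.7% of other genes. State 7 held 21, 38 and 28 Zfp TSS bins (5.44%, 9.84% and 7.25%), against 1.48%, 3.55% and 1.36% of other genes. Of these, 16, 28 and 22 belonged to clustered genes.

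Between segmentations, the share of Zfp TSS bins that changed state was near that of all genes. Against SD 3m, 106 Zfp genes (27.5%) had their TSS bin in another state in SD 12m and 116 (30.1%) in CR 12m, while 32.7% and 35.5% of all 20021 genes did so. Both comparisons share SD 3m. Between SD 12m and CR 12m 96 Zfp genes (24.9%) differed at the TSS, against 27.1% of all genes. Of the 244 Zfp genes in state 1 in SD 3m, 44 had left it in SD 12m (18.03%, 13.7 to 23.3%), against 15.7% of the 6893 other genes in that state. In CR 12m 56 had left it (23.0%) against 26.2% of other genes. Over all 20021 genes, leaving state 1 was seen in 5.62% for SD 12m and 9.3% for CR 12m.

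State 1 was entered by 27 Zfp genes in SD 12m (6.99%, against 5.14% of all genes) and 19 in CR 12m (4.92%, against 4.18%). The TSS bin had 1 and the same state in all groups in 235 Zfp genes (60.9%, against 54.9% of all genes).

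The state entered differed from other genes. From state 1 to state 7 went 19 of the 244 Zfp genes in SD 12m (7.79%, 5.04 to 11.8%) and 44 of the 6893 other genes (0.638%, 0.476 to 0.856%). In CR 12m the same step was seen in 13 Zfp genes (5.33%) and in 12 of all other genes (0.174%). Over all 20021 genes it was seen in 0.315% and 0.125%. Of the 19, 16 were clustered, as were 147 of the 244. The step was seen in 10.9% of these clustered genes (6.81 to 16.9%) and 3.09% of the single genes (1.06 to 8.70%), and in CR 12m in 8.16% and 1.03%. The SD 12m intervals overlapped. Over all 221 clustered and 165 single genes, the clustered minus single difference was 5.42 points (1.07 to 9.79) in SD 12m. In CR 12m it was 4.82 points (1.24 to 8.68), and neither interval of the difference held 0. Of the 19, 17 had state 7 as the most frequent state of the downstream part of their gene body already in SD 3m. This was so in 118 of the 283 Zfp genes in state 1 or 2, with 95 of 170 among clustered and 23 of 113 among single genes. In 9 of the 19, over 10% of the words in the TSS bin were repeated, a value explained with the mapping below, and in 3 of the 13 in CR 12m. Over all 386 Zfp genes this was so in 60, with 45 of the 221 clustered and 15 of the 165 single genes. Zfp109, Zfp459, Zfp551, Zfp677, Zfp729b, Zfp820, Zfp947, Zfp976 and Zfp984 made the step in both 12-month groups, and all 9 were clustered. In contrast the step from state 1 to enhancer state 4 was no more frequent in Zfp genes, at 6.56% against 8.98% of other genes in SD 12m and 10.7% against 12.3% in CR 12m.

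Counted with state 2 as an active state too, 24 Zfp genes in SD 12m (6.22%, against 0.549% of all genes) and 22 in CR 12m (5.70%, against 0.664%) went from state 1 or 2 to state 6, 7 or 8. Zfp984 on chromosome 4 (147753974 to 147809788) went from state 1 to state 7 in both 12-month groups, and 54.5% of the words in its TSS bin were repeated. The single gene Zfp808 on chromosome 13 went from state 1 to state 7 in SD 12m and to state 8 in CR 12m. Zfp827, a single gene on chromosome 8, was in state 1 in SD 3m and SD 12m and in state 8 in CR 12m. The reverse step was seen in 3 Zfp genes in SD 12m (Zfp872, Zfp28 and Zfp418; 0.777% against 0.17% of all genes) and in none in CR 12m (0.185% of all genes), where 0 of 386 allows a share of up to 0.985% by the Wilson interval.

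The gene bodies set the Zfp genes apart most. The distal body means the bins from the midpoint of the gene to its 3′ end. It is called mostly in a state if that was its most frequent single state, which need not hold a majority of bins. Mostly in states 1 to 5 means that the most frequent single state was among these. The distal body was mostly in state 7 in 146 of 386 Zfp genes in SD 3m (37.8%, 33.1 to 42.8%), in 142 in SD 12m (36.8%, 32.1 to 41.7%) and in 128 in CR 12m (33.2%, 28.7 to 38.0%). Among other protein-coding genes it was mostly in state 7 in 154 of 19635 in SD 3m (0.784%), with 604 in SD 12m (3.08%) and 254 for CR 12m (1.29%). In SD 3m the Zfp genes thus made up 48.7% of the 300 genes with such a distal body, in SD 12m 19.03% of 746 and in CR 12m 33.5% of 382. The olfactory receptor genes (Olfr), a clustered family silent in liver, had this in 1.45%, 23.98% and 7.90% of 1101 genes, and the zinc finger families Zscan, Zkscan, Zbtb and Klf in 4.82%, 4.82% and 3.61% of 83 genes. The share of other genes was larger in both 12-month segmentations than in SD 3m, and that of Zfp genes was not.

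Clustering went with the distal body state in every group. Of clustered Zfp genes, 116 (52.5%) were mostly in state 7 in SD 3m, with 112 (50.7%) in SD 12m and 98 (44.3%) for CR 12m, and of single genes 30 (18.2%) in each group. The clustered minus single difference was 34.3 points (25.004 to 42.6) in SD 3m, 32.5 points (23.2 to 40.8) in SD 12m and 26.2 points (17.0 to 34.5) in CR 12m. Single genes were mostly in states 1 to 5 more often, in 35.2%, 42.4% and 42.4% of cases against 16.7%, 16.3% and 20.4% of clustered genes. The Polycomb state led the distal body of 5 Zfp genes in each group (1.30%), against 8.46%, 10.3% and 8.45% of other genes. Close to the limit of the clustering rule, Zfp605 and Zfp932, 99.7 kb apart and so clustered, had their distal bodies mostly in state 7 in all groups. The distal body of the clustered gene Zfp972, 97.6 kb from the next Zfp gene, had no state 7 and was mostly in state 8. Zfp715 and Zfp936, 104 kb apart and so single, differed: that of Zfp936 was wholly in state 7 in all groups and that of Zfp715 had no state 7. The single gene Zfp653, 117 kb from the next, had no state 7 there either.

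**Figure D2:**
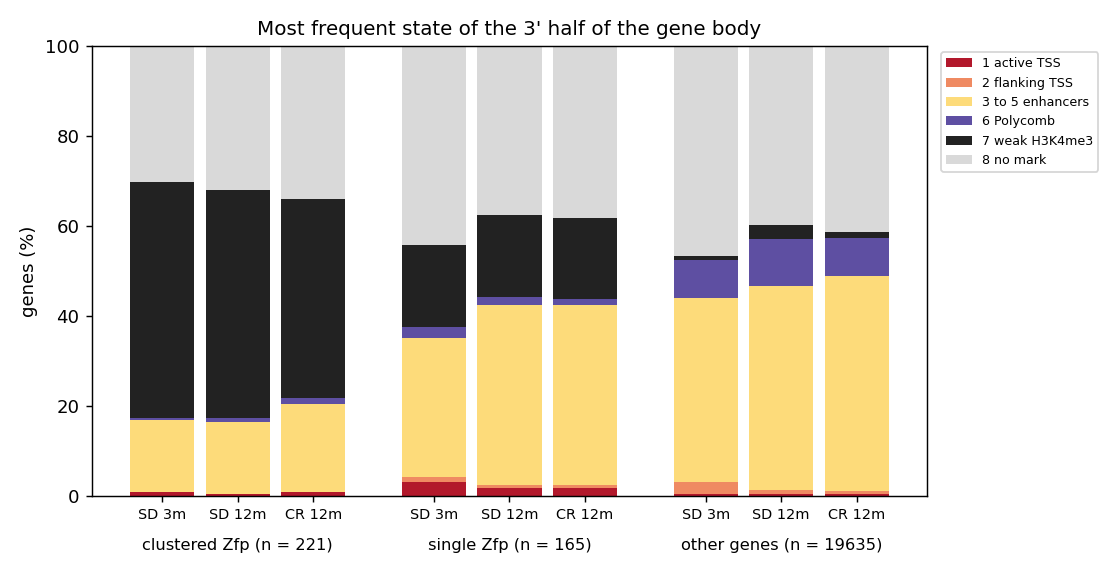
Most frequent state of the distal body (midpoint to 3′ end) as stacked percentages of genes, for the same gene sets and segmentations as in the plot of TSS states. State 7 leads in 52.5% of clustered Zfp genes in SD 3m, 44.3% in CR 12m, in 18.2% of single Zfp genes in each group, and in 0.784% to 3.08% of other genes.

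State 7 was more frequent towards the 3′ end. In clustered genes in SD 3m it took 7.24% of bins at the TSS, 24.4% at 25% of the body, 39.4% at 50%, 50.7% at 75% and 52.9% at the 3′ end, and 33.5% at 10 kb past the end. The active states 1 and 2 ran the other way, from 76.9% at the TSS to 13.1% at 25% of the body. Upstream, 30.8% of bins at 10 kb before the TSS were in state 7. In SD 12m and CR 12m state 7 took 49.8% and 46.2% at the 3′ end, and 12.7% and 9.95% at the TSS. Single genes in SD 3m went from 3.03% at the TSS to 15.8% at the 3′ end, while other genes stayed between 0.978% and 1.48% at the points read along the body. In all gene sets, the zone of states 1 and 2 around the TSS was narrower in both 12-month segmentations: at 10% of the body, 34.4% of clustered genes were in these states in SD 3m, with 21.7% in SD 12m and 16.7% for CR 12m, and 23.6%, 14.97% and 13.3% of other genes.

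**Figure D3:**
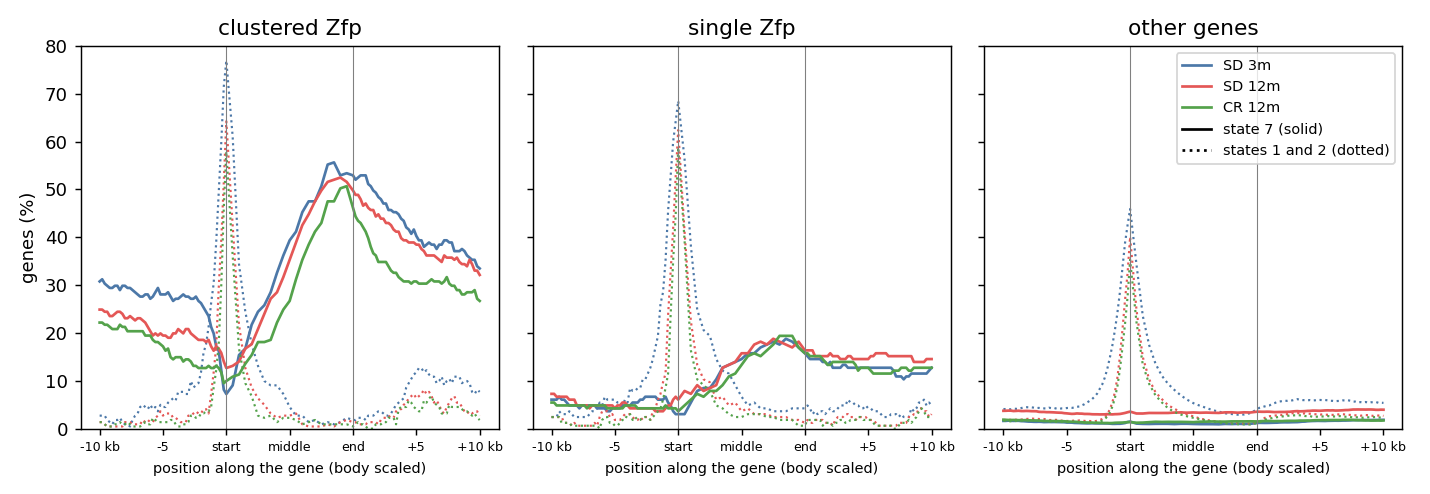
Percentage of genes in state 7 (solid) and in states 1 and 2 (dotted) from 10 kb before the TSS, along the gene body scaled to equal length, to 10 kb past the 3′ end, for SD 3m, SD 12m and CR 12m. In clustered Zfp genes state 7 is lowest at the TSS (7.24% in SD 3m) and reaches 52.9% at the 3′ end, whereas in other genes it shows no such slope.

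The distal body state also went with the number of finger linkers, which the choice of genes did not use. In SD 3m the distal body was mostly in state 7 in 18 of 166 Zfp genes with 0 to 2 linkers (10.8%, 6.97 to 16.5%), in 30 of 74 with 3 to 5 (40.5%), in 55 of 84 with 6 to 8 (65.5%) and in 43 of 62 with 9 or more (69.4%, 57.0 to 79.4%). In SD 12m the shares were 10.8%, 36.5%, 61.9% and 72.6%, and in CR 12m 8.43%, 33.8%, 57.1% and 66.1%. Both classes showed this order. In single genes with 0 to 2 linkers 2 of 108 were mostly in state 7 in SD 3m (1.85%), and with 6 to 8 linkers 16 of 26 (61.5%, 42.5 to 77.6%), close to the 67.2% of clustered genes with 6 to 8 linkers. Single means only that no other gene with a Zfp symbol lay within 100 kb, so zinc finger genes of other names may lie nearby. Among the single genes with 6 to 8 linkers, the nearest Zfp gene lay 104413 bases away for Zfp936 and 16184248 bases away for Zfp949. At equal linker number the classes were not alike throughout. With 0 to 2 linkers 16 of 58 clustered genes (27.6%, 17.8 to 40.2%) were mostly in state 7 in SD 3m, above the interval of the single genes (0.509 to 6.50%). With 3 to 5 linkers the share was also higher in clustered genes (27 of 57, 47.4%, 34.99 to 60.1%) than in single genes (3 of 17, 17.6%, 6.19 to 41.03%). These intervals overlapped, which does not show that the classes were alike. Genes with a distal body in state 7 had a median of 7 linkers in SD 3m, those in state 8 a median of 2 and those in states 1 to 5 a median of 1.

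**Figure D4:**
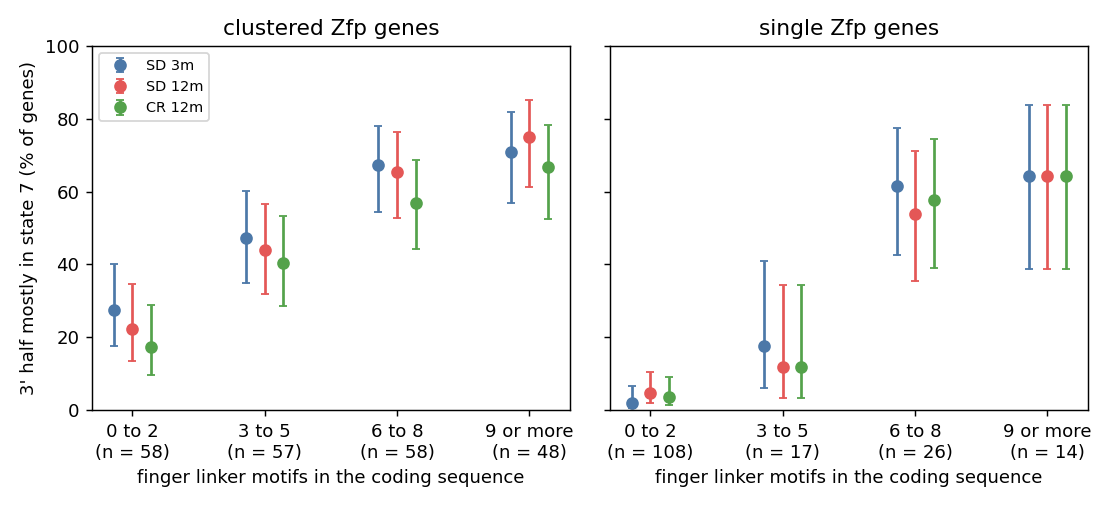
Percentage of Zfp genes with the distal body (from the midpoint to the 3' end) mostly in state 7, by the number of linker motifs in the coding sequence, for clustered (left) and single genes (right). Points are SD 3m, SD 12m and CR 12m, bars are Wilson 95% intervals, and n is the number of genes; in single genes in SD 3m the share is 1.85% with 0 to 2 linkers and 61.5% with 6 to 8.

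Among genes outside the naming rule, those with 3 or more linkers also had the distal body in state 7 more often than those with fewer. Of the 85 other protein-coding genes with 3 or more linkers, 39 had the distal body mostly in state 7 in SD 3m and 40 in each 12-month group, whereas of the 19550 with fewer linkers 115, 564 and 214 had. Above 3 linkers there was no steady order, with 17.9% at 3 to 5, 64.7% at 6 to 8 and 57.5% at 9 or more in SD 3m. Many of the 85 had provisional names: 44 were called Gm with a number, 26 of them with a distal body mostly in state 7 in each group. Of 10 Zkscan genes with 3 or more linkers 3 had such a distal body, and of 7 Zscan genes none had. Among other genes with fewer than 3 linkers, the count was larger in SD 12m than in SD 3m in Olfr genes (16 and 264), in vomeronasal receptor genes (13 and 64 of 351) and in Pcdhb genes (6 and 14 of 22), while the count over all 386 Zfp genes went from 146 to 142. These families were looked up after the values were seen.

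Among Zfp genes with an active TSS, a distal body in state 7 was about as frequent as among all Zfp genes. Of 283 Zfp genes with the TSS in state 1 or 2 in SD 3m, 118 had the distal body mostly in state 7 (41.7%), in SD 12m 84 of 245 (34.3%) and in CR 12m 79 of 225 (35.1%). Over all 386 Zfp genes the shares were 37.8%, 36.8% and 33.2%. With the TSS in state 7 they were 15 of 21 (71.4%), 32 of 38 (84.2%) and 25 of 28 (89.3%). Of other genes with an active TSS, 40 of 9015 in SD 3m (0.444%) had such a distal body.

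Distal bodies that had state 7 at 3 months mostly had it in the other groups too. Of the 146 Zfp genes with the distal body mostly in state 7 in SD 3m, 133 were still so in SD 12m (91.1%, 85.4 to 94.7%) and 121 in CR 12m (82.9%, 75.9 to 88.1%), and 120 were in all 3 groups. Of the 154 other genes, 113 (73.4%, 65.9 to 79.7%) and 89 (57.8%, 49.9 to 65.3%) were. Bins gave the same picture: of 7214 distal-body bins in state 7 in SD 3m, 92.2% kept it in SD 12m and 86.6% in CR 12m, against 72.6% and 52.8% of the 236250 such bins on all autosomes. Of the 13351 distal-body bins in state 8, 9.83% were in state 7 in SD 12m and 4.99% in CR 12m, against 15.8% and 5.01% on all autosomes.

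The most frequent state of the distal body changed in 71 Zfp genes in SD 12m (18.4%, against 28.9% of all genes) and in 97 in CR 12m (25.1%, against 29.5%), and between SD 12m and CR 12m in 58 (15.03%, against 19.8%). A drop of 10 points or more in the share of state 7 was seen in 41 Zfp genes in SD 12m (10.6%, against 0.824% of all genes) and 57 in CR 12m (14.8%, against 1.18%). Over the last 2 kb before the 3′ end alone, such drops were seen in 5.96% and 7.25% of Zfp genes. Among genes with at least 10% of the distal body in state 7 in SD 3m, 41 of 160 Zfp genes (25.6%, 19.5 to 32.9%) and 124 of 346 other genes (35.8%, 31.0 to 41.0%) showed such a drop in SD 12m, and 35.6% and 52.0% in CR 12m. A rise of 10 points or more was seen in 20 Zfp genes in SD 12m (5.18%, against 3.93% of all genes) and 14 in CR 12m (3.63%, against 1.61%). Among genes with at most 90% of the distal body in state 7 in SD 3m, 20 of 279 Zfp genes showed such a rise in SD 12m (7.17%, 4.69 to 10.8%), against 3.92% of other genes. In CR 12m 5.02% of these Zfp genes (3.01 to 8.25%) and 1.58% of these other genes did. Rises in states 1 to 5 (13.5% in each 12-month group, against 12.3% and 15.5% of all genes) were about as frequent as elsewhere, and rises in state 6 rarer (1.81% and 1.55%, against 7.66% and 5.99%). Rises in state 8 were seen in 16.6% and 19.9%, against 12.1% and 11.8% of all genes, and drops in 16.1% and 15.8%, against 21.2% and 20.8%. Drops in states 1 to 5 were seen in 27 and 24 Zfp genes (6.99% and 6.22%, against 7.99% and 7.29%) and drops in state 6 in 11 and 10 (2.85% and 2.59%, against 5.38% and 5.89%). The distal body was wholly in state 8 in all 3 groups in 40 Zfp genes (10.4%, against 14.7% of all genes).

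Counted over bins in place of genes, state 7 in the distal bodies went from 25.2% (SD 3m) to 28.0% for SD 12m and 24.3% for CR 12m, a direction in SD 12m that the gene counts do not show. The single genes alone went from 8.07% to 12.8% and 9.38%. Among the single genes, Zfp804b (575 kb) went from 17 of 1439 bins to 656 for SD 12m and 156 for CR 12m, and Zfp804a (206 kb), a gene expressed in brain, went from 0 of 515 to 279 and 199. Without these, Zfp980 and Zfp352 the single genes stood at 8.66%, 8.09% and 7.98%. These 4 genes were picked after the values were seen, and each gained state 7 bins in SD 12m. Leaving them out therefore had to reduce the rise, and no genes with drops were left out to match. For this reason these shares cannot decide whether the rise was limited to the 4 genes. With Zfp804a alone left out, the single genes stood at 8.30%, 11.6% and 8.54%.

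Clusters as wholes covered 8.658 Mb, or 0.352% of the autosomes. In SD 3m state 7 took 39.1% of this length, in SD 12m 38.0% and in CR 12m 32.7%, while over all autosomes it took 1.92%, 11.9% and 4.35%. The clusters therefore held 7.17% of all autosomal state 7 in SD 3m, with 1.13% in SD 12m and 2.65% for CR 12m. Outside the bodies of the measured Zfp genes, state 7 took 34.9%, 33.5% and 27.6% of the span, so it was not limited to those bodies. This part of the span includes the body of Zfp993, which had no curated transcript. Polycomb state 6 took 3.65%, 2.46% and 2.02% of the spans. Of the 36 other protein-coding genes that lay wholly inside a cluster, 5, 5 and 4 had the distal body mostly in state 7 and 15, 17 and 19 mostly in states 1 to 5.

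**Figure D5:**
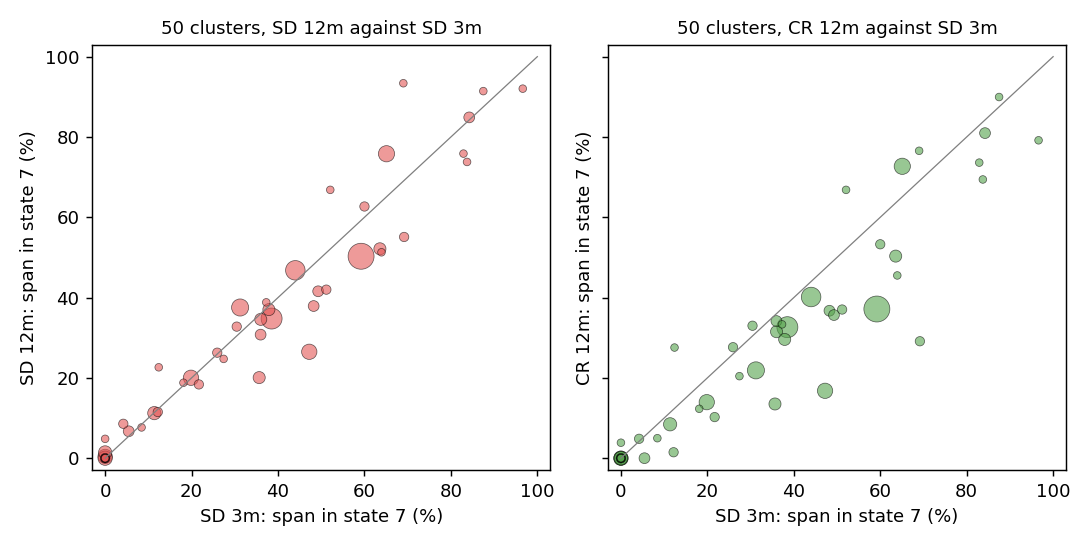
Percentage of each cluster's span in state 7 in SD 12m (left) and CR 12m (right) against SD 3m; each of the 50 circles is a cluster, its area is proportional to the number of genes, and the line marks equal values. In CR 12m 29 clusters lie below the line and 9 above it, in SD 12m 21 and 19.

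Clusters differed widely from each other. The share of the span in state 7 ran from 0 to 96.6% in SD 3m. The mean share over the distal bodies of the cluster's genes was 50% or more in 25 clusters in SD 3m, with 22 in SD 12m and 18 for CR 12m, and 0 in 14, 12 and 14. The largest, 23 genes on chromosome 13 (67038594 to 67827000), had 59.2% of its span in state 7 in SD 3m, with 50.3% in SD 12m and 37.2% for CR 12m, with 21, 18 and 16 of its TSS bins in state 1 or 2. Its longest gene, Zfp595, had its distal body wholly in state 7 in SD 3m and SD 12m and 97.3% in CR 12m. The next, 15 genes on chromosome 7 (29768552 to 30169741), had 38.5%, 34.8% and 32.6% in state 7, and all 15 TSS bins were in state 1 or 2 in SD 3m, with 13 in SD 12m and 11 for CR 12m. Its longest gene, Zfp568, had no state 7 in its distal body, which was in state 8 over 68.2%, 56.4% and 48.2% of bins.

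The cluster of 13 genes on chromosome 17 (21383748 to 21994366) had 44.0%, 46.8% and 40.1% of its span in state 7, and its longest gene Zfp942 was wholly in state 7 over the distal body in all groups. The 10 genes on chromosome 7 (24081897 to 24316666) had 31.2%, 37.5% and 21.9%, and Zfp180, their longest, was likewise wholly in state 7. The 9 genes on chromosome 4 (147124882 to 147848418) were the exception among these 5 clusters: state 7 took more in both 12-month groups, 65.1%, 75.8% and 72.7%, and only 2, 1 and 1 of its TSS bins were in state 1 or 2, with 5, 6 and 6 in state 7. Its median gene had 61.4% repeated words in the distal body, against 10.2% in the chromosome 13 cluster and 1.77% in the 15-gene cluster. Not all clusters held state 7. The 7 genes on chromosome 7 at 127233061 to 127449158 lay wholly in states 1 to 5 in every group, and the 7 on chromosome 6 at 47819266 to 48086593 had 0%, 0.449% and 0% in state 7. These 2 clusters were picked after their values were seen.

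Single changes were large in a few genes. Zfp988, in the chromosome 4 cluster, had 12.7% of its distal body in state 7 in SD 3m, with 95.8% in SD 12m and 63.4% for CR 12m. Its neighbour Zfp534 had 8.45%, 69.0% and 69.0%. Zfp28 had 0%, 72.7% and 0%, and Zfp93 had 28.0%, 100% and 0%, so that in these genes SD 12m alone stood high. The single gene Zfp996 had 0%, 25% and 58.3%. Zfp616 had 0%, 100% and 0% of its distal body in state 6, and Zfp660 had 18.5%, 59.3% and 77.8% in state 6. Zfp735 held 33.3%, 71.4% and 28.6% in state 6, Zfp641 40%, 40% and 100%, and Zfp663 0%, 0% and 40.9%.

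States 1 to 5 covered the distal body of Zfp239 over 11.1%, 100% and 100%, and that of Zfp598, a ubiquitin ligase that acts on stalled ribosomes, over 25.8%, 100% and 100%. Zfp341, which activates STAT3 transcription, had 39.3%, 95.2% and 81.0%, and Zfp870 0%, 0% and 77.4%. State 8 took 0%, 100% and 100% of Zfp874a, 0%, 100% and 29.6% of Zfp597, 0%, 91.7% and 0% of Zfp811, 0%, 0% and 100% of Zfp235, and 9.68%, 45.2% and 100% of Zfp971. These genes were named by the size of the change, so their values are a description.

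The 22 Zfp genes with a known role varied. An active TSS in all groups with the distal body in states 1 to 5 was seen in Zfp36, Zfp36l1 and Zfp36l2, which speed the decay of mRNAs with AU-rich elements, in Zfp143, Zfp148, Zfp281 and Zfp384, which are widely expressed transcription factors, and in Zfp335 and Zfp703. All 9 are single and had the distal body wholly in states 1 to 5 in every group. An active TSS with state 7 downstream was seen in a pair of genes. Zfp809, which silences murine leukaemia virus, had its TSS in state 1 throughout and 72.7%, 40.9% and 50% of the distal body in state 7. Zfp445 had 73.8%, 90.5% and 14.3%, with 85.7% of its distal body in states 1 to 5 in CR 12m. Zfp568 had an active TSS and no state 7 downstream, as described above. Other genes had the TSS outside states 1 and 2 in all groups. Zfp42 (Rex1), a marker of pluripotent cells, had states 8, 7 and 8 at the TSS and state 8 over the distal body, Zfp423, a preadipocyte factor, 8, 8 and 4, Zfp521 and Zfp536 8, 6 and 6, Zfp804a 8 in all groups, Zfp819 8, 8 and 6, and Zfp352, active at the start of embryonic development, 7, 8 and 7. Zfp503 had enhancer state 5 in SD 3m and enhancer state 4 in both 12-month groups. Zfp750, an epidermal factor, had enhancer state 3 in SD 3m and state 2 in both 12-month groups, with the distal body wholly in states 1 to 5.

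The genes whose products work with KRAB zinc finger proteins mostly had the TSS bin in state 1. Of 24 on a list of co-repressors, heterochromatin proteins and methyltransferases, 23 were found, and 18 were in state 1 in SD 3m and 17 in each 12-month group. All 23 were in states 1 to 5 in all groups, as were 62.7%, 62.9% and 63.2% of other genes, and Chd4, Uhrf1, Dnmt1 and Dnmt3a were in enhancer state 3 or 4 throughout. Trim28 was in state 1 throughout. One changed state, Setdb1, which had state 1 in SD 3m but state 4 in both 12-month groups. As a check of the tissue, all 8 hepatocyte markers on a list (Alb, Apoa1, Ttr and others) had the TSS bin in states 1 to 5 in all groups. Of 4 genes of other organs (Pax6, Neurod1, Myod1 and Nkx2-5), none was in those states in SD 3m or SD 12m and 1 was in CR 12m. Markers of other liver cells differed between groups in opposite ways. In states 1 to 5 were 2, 1 and 0 of 5 Kupffer cell and leukocyte markers in SD 3m, SD 12m and CR 12m, 3, 4 and 5 of 5 endothelial, 2, 2 and 1 of 5 stellate cell and 2, 3 and 4 of 5 cholangiocyte markers. Their part in the results was not tested.

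Reads from duplicated sequence are hard to place. The reads had 50 bases and the authors removed those with a mapping quality below 1, so each bin was scored by the share of its 50-base words that occur again in the genome. The median over distal bodies was 3.19%, 4.15% in clustered and 1.89% in single genes, and 100 Zfp genes had over 10%. In bins with at least 90% of words found once, state 7 took 54.4% of the distal bodies of clustered genes in SD 3m, with 50.5% in SD 12m and 45.6% for CR 12m, and 6.58%, 10.8% and 7.85% of those of single genes. In the bins with under 50% such words it took 46.7%, 55.0% and 53.0% in clustered genes. In clustered genes, state 7 was thus lower in both 12-month groups than in SD 3m in the first kind of bin and higher in the second. The part of mapping in the results was not tested. The order by linkers held in the genes with at most 10% repeated words, where 83 of 146 genes with 3 or more linkers had the distal body mostly in state 7 in SD 3m, with 78 in SD 12m and 71 for CR 12m.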

How the data were processed

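ChIP-seq libraries of H3K4me1, H3K4me3, H3K27ac and H3K27me3 from mouse liver were aligned to mm10 by the authors with BWA 0.6.2-r126 and filtered with SAMtools 0.1.18, and the libraries of a group were merged. The authors learned 8 states with ChromHMM and deposited 1 segmentation per group, in which the values are state labels of 200 bp bins (other than counts or signal); no depth can be read from them. The 20 libraries of a group taken at 6 months were not analysed here.

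Gene starts and bodies came from the longest curated RefSeq transcript on GRCm38.p6. States of the TSS bin and of the distal body were counted with Python 3.11.15, numpy 2.4.6 and pandas 2.3.3, and the counting was tested on simulated data. With 1 segmentation per group no test was run. The members and lists were chosen with earlier results of these data known, and the linker motif was chosen after the files were seen, in place of protein patterns. Named genes were those of a known-role list, the 5 largest clusters with their longest gene, the 3 largest rises per state among genes with at least 25 distal bins, and the 3 longest genes that lost or gained an active TSS state. Alternatives changed the TSS, the part of the body, the clustering distance, the repeated-word filter and the state classes.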

Additional observations from a re-analysis of the deposited data

How the results depend on the processing

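No paired analysis was possible because each group has 1 segmentation of merged libraries, and for the same reason no replicate could be left out. Of 152 alternative values of 18 results, 125 stayed within the 95% interval of the reported value and 27 moved out of it. The 125 include values that could not move, because state 7 stays a class of its own when states are joined into 5 classes. Under that alternative the state 7 shares of distal bodies, their clustered minus single differences and the counts of drops are the reported values again. The clustered minus single difference in TSS state 1 in SD 12m, close to 0 as reported, ran from -2.36 to 4.85 points over its alternatives, with every interval holding 0; in SD 3m the interval did not hold 0 with the lowest state within 1 kb (10.2 points, 1.42 to 19.1). With the gene's 5′ end in place of the transcript start, 53.4%, 50.3% and 48.2% of TSS bins were in state 1 in SD 3m, SD 12m and CR 12m, and 35.0% had changed in CR 12m. With the lowest state within 1 kb these shares were 74.4%, 70.5% and 66.8%, and 15.5% and 19.2% had changed in SD 12m and CR 12m. With only TSS bins of at least 90% words found once, 65.95% were in state 1 in SD 12m. Over the whole body, 31.1% and 26.2% of genes were mostly in state 7 in SD 12m and CR 12m, the most frequent state had changed in 23.3% in SD 12m, and state 7 was lower by 10 points or more in 19.7% in CR 12m. Over the last 2 kb such drops were seen in 5.96% and 7.25%. Over pooled bins state 7 took 25.2%, 28.0% and 24.3%, the clustered minus single difference was 48.1, 42.9 and 41.9 points, and no count of drops could be had. With states joined into 5 classes, 73.3% of TSS bins were active in SD 3m, 19.9% and 23.3% had changed class, and 14.2% and 17.6% of distal bodies had. Read depth limits all of these to an unknown degree.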
